A study of Mus musculus with 6 samples.

Results

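Cell cycle and DNA replication genes were described in mouse liver as a set of 40 genes chosen by name: cyclins, cyclin-dependent kinases and their regulators, replication enzymes, and the machinery of mitosis. A gene was measured where an array probe set carried its symbol alone, and the probe set with the highest mean over the 6 arrays stood for it. On that rule 39 of the 40 genes had a value, of 18193 genes on the array. Ccnb1 had no value on the arrays and entered only the counts of promoter windows. The livers came from 3 Retnla-Tg mice carrying a transgene for Retnla, numbered Tg 5 to Tg 7, and from 3 Retnla-non-Tg mice lacking it, numbered non-Tg 1 to non-Tg 3. All were C57BL6/J males aged 3 months. Both groups had been moved from a standard diet to a high-fat diet (21% fat, 0.15% cholesterol) at 8 weeks of age and had eaten it for 4 weeks. Total RNA of each mouse was read on its own Affymetrix mouse array. The sources used here name neither the promoter that drives the transgene nor the number of founder lines.

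A cell enters the cycle when D-type cyclins with Cdk4 and Cdk6, and then E-type cyclins with Cdk2, inactivate the retinoblastoma protein and free E2F factors, which switch on the genes of DNA replication. Later, the DREAM complex gives way to B-Myb and FoxM1, which help to drive the genes of G2 and mitosis. Promoters of those genes often hold elements called CHR and CCAAT boxes. In adult liver most hepatocytes rest outside the cycle and re-enter it after loss of tissue, so transcripts of mitosis are usually scarce there, while several G1 regulators are also made in resting cells.

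Promoter windows of 4 genes are shown because they hold the elements named above in forms found often among the replication or the mitosis genes: Mcm3 for replication, and Cdk1, Ccnb2 and Plk1 for mitosis, genes with a difference near 0, above 0 or below 0 on the arrays. Each is the window from 250 bases before to 50 bases after the gene's start in RefSeq's table of build GRCm38.p6, written 5′ to 3′ on the gene's strand. Capitals mark TTTGAA (the core of the CHR), CCAAT, TTTCCCGC and TTTGGCGC (forms of the E2F site), on either strand.
Mcm3, chr1:20820263-20820562, minus strand: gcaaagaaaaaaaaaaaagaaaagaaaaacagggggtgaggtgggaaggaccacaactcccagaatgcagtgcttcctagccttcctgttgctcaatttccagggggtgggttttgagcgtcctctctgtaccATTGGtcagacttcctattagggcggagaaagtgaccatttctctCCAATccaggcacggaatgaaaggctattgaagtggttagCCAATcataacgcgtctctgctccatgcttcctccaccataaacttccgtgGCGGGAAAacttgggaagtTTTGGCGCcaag
Cdk1, chr10:69352863-69353162, minus strand: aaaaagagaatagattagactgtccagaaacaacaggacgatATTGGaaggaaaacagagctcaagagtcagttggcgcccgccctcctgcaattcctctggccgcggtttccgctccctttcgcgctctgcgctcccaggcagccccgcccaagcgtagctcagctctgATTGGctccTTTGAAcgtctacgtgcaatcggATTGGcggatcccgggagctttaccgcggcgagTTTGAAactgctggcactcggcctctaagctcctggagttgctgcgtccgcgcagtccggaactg
Ccnb2, chr9:70421505-70421804, minus strand: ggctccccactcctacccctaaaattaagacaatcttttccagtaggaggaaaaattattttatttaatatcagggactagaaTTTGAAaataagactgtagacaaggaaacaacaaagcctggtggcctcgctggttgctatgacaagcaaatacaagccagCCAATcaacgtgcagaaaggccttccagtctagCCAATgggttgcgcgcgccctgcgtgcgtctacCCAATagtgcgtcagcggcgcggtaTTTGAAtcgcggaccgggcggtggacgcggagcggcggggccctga
Plk1, chr7:122159185-122159484, plus strand: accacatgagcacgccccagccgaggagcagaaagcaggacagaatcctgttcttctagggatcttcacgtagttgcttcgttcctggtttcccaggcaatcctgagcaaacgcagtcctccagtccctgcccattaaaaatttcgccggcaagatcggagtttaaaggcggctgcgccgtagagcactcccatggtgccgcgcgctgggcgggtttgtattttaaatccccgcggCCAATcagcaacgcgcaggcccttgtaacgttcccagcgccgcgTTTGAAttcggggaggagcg
In Cdk1 a TTTGAA began 15 bases before the start, downstream of a CCAAT on the other strand that began 48 bases before it. Another TTTGAA of Cdk1 began 71 bases before the start, and further CCAAT boxes on the other strand began 80 and 208 bases before it. Ccnb2 had 3 CCAAT boxes on the sense strand, beginning 87, 54 and 21 bases before the start. It had a TTTGAA at base 5 of the transcript and another beginning 167 bases before the start. Plk1 had 1 of each, the CCAAT 14 bases before the start and the TTTGAA at base 31 of the transcript. Mcm3 held both E2F forms after its start and no TTTGAA.

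Of the 40 genes, 31 had such a window, 34 windows in all. The genes without one in the table were Ccnd1, Ccnd2, Ccne2, Rb1, Myc, Mcm4, Ccna2, Aurkb and Foxm1. TTTGAA was found in 10 of 14 windows of G2 and mitosis genes (71.4%), 1 of 10 of replication genes and 0 of 10 of G1 genes, against 17.9% of all 32851 promoter windows of the same length. CCAAT was found in 12 of 14 windows of G2 and mitosis genes, 9 of 10 of replication genes and 4 of 10 of G1 genes, against 37.4% of all windows. All 10 mitosis windows with TTTGAA also held CCAAT, a pair present in 6.95% of all windows. An E2F form stood in 4 of 10 replication windows and 1 of 10 G1 windows (that of Cdk2), against 1.56% of all windows, and in 0 of 14 mitosis windows. Matches were counted on both strands, and no element searched lies whole within another, though neighbours can share bases at their edges. Birc5 and Mad2l1, both genes of mitosis, held neither TTTGAA nor CCAAT in this window.

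The arrays gave 1 log2 signal per probe set, with the same trimmed mean signal on every array, and the array medians lay between 6.49 and 6.74. Retnla checked the labels: its log2 signal was 16.04, 15.91 and 16.04 in Tg livers, against 6.03, 7.41 and 6.48 in non-Tg livers. Abundant hepatocyte transcripts marked the tissue as liver, with a log2 of the summed signal of 9 of 10 markers from 19.14 to 19.24 in Tg and from 19.11 to 19.18 in non-Tg livers. By the bioC control, a bacterial transcript added to each sample, the arrays fell into 2 sets, a lower one of Tg 5, Tg 6 and non-Tg 1 and a higher one of Tg 7, non-Tg 2 and non-Tg 3. The sources used here do not say what the sets reflect.

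In the comparison of Tg with non-Tg livers, none of the cell cycle genes passed. The fit was limma's moderated test over 12705 genes whose probe set had a mean log2 signal above the 40th percentile, 5.63, with a threshold of 0.05 on the Benjamini-Hochberg adjusted p. Of the 39 measured genes 34 lay above that filter, and 0 of them passed, against 0.0157% of all genes tested (2 genes, Retnla being 1). Their adjusted p ran from 0.803 to 1.00. At an unadjusted limma p under 0.05 there were 3 of the 34 genes, 8.82% against 6.05% of all genes tested. All 3 (Ccne1, Ccna2 and Cdk1) were higher in Tg livers, against 2.93% of all genes tested on that side. The groups did not overlap for 5 of the 34, 14.7% against 11.7% of all genes tested. Of these, 4 were higher in Tg livers (background 6.04%) and 1 was lower (background 5.64%). The count of 5 became 10 without Tg 5 or without Tg 7 and 8 without non-Tg 2 or without non-Tg 3. Smaller groups overlap less often by construction. No background at that group size stands beside these counts, so nothing is read from the rise. The shares above rest on few genes. E2f1, Ccnb2, Birc5 and Top2a passed the filter only through their higher Tg values, with non-Tg means of 5.39, 4.73, 5.20 and 5.54. Plk1 fell below it only through its lower Tg values, with a non-Tg mean of 6.56. Aurkb and Kif11 fell below it only through their lower non-Tg values, with Tg means of 5.92 and 5.88. The counts over the 34 genes are therefore descriptions.

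The medians of the phases were set side by side, and their difference was not tested. Over the 16 measured G2 and mitosis genes the median log2 difference, Tg minus non-Tg, was 0.43, with 11 genes higher and 5 lower. Over the 13 G1 genes it was 0.03, with 9 higher and 4 lower, and over the 10 replication genes -0.06, with 4 higher and 6 lower. With 1 mouse left out the G1 median ran from -0.01 to 0.14, with the top value without Tg 5, and the replication median from -0.11 to 0.09, above 0 without Tg 6, Tg 7 or non-Tg 2. Over all 39 genes the median was 0.07 (0.10 to 0.22 with 1 mouse left out, the top without non-Tg 3) and 24 were higher. The same over all 18193 genes measured was a median of 0.03 with 53.4% higher, and over the 12705 tested 0.01 with 52.1% higher. Because liver RNA was measured in bulk, a difference in the number of cells of a type and in the RNA of each cell cannot be told apart.

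**Figure D1:**
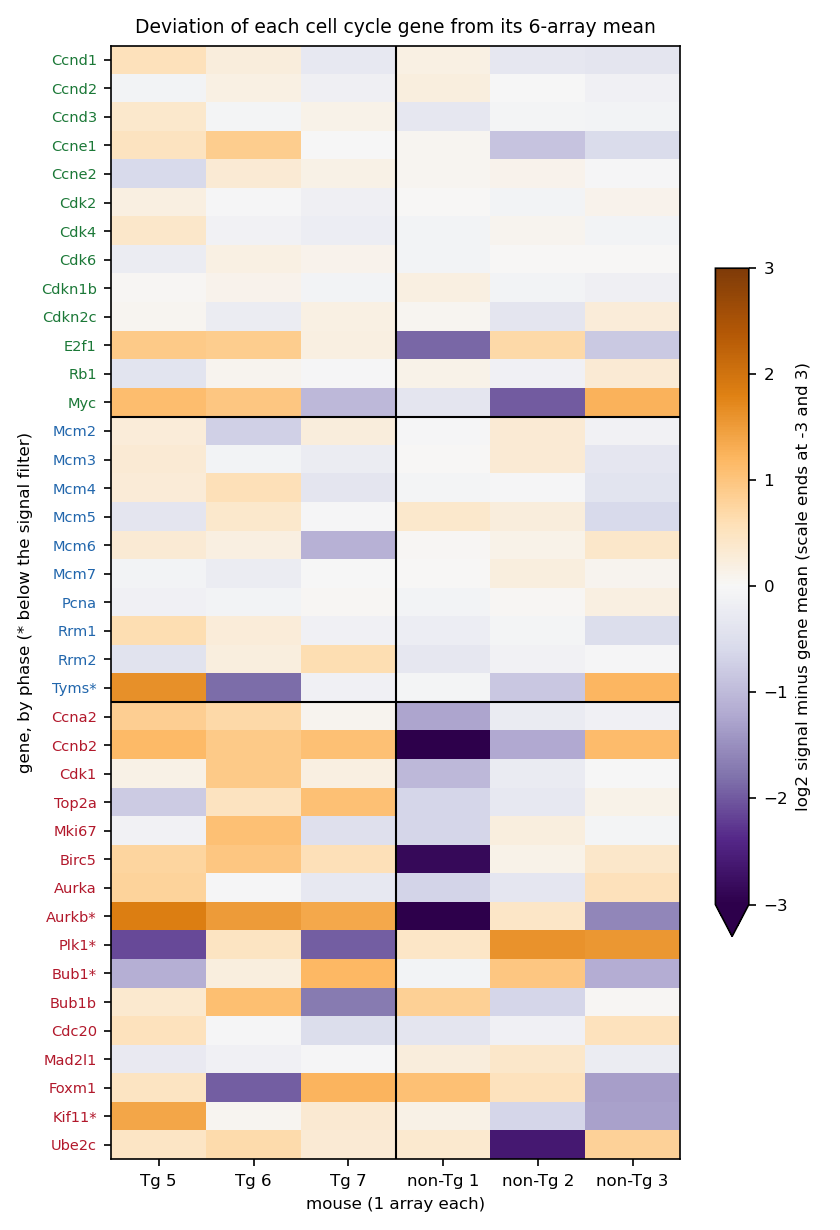
Heat map of 39 cell cycle genes (rows, coloured by phase) in 6 mice (columns, Tg left of non-Tg); colour gives the log2 signal minus the gene's mean over the 6 arrays, and an asterisk marks genes below the signal filter. The darkest cells are Ccnb2, Birc5 and Aurkb in non-Tg 1, at log2 signals of 2.67, 3.12 and 0.74.

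Of the G1 genes the cyclins are given first. Ccne1, the E-type cyclin that activates Cdk2 at the entry into S phase, had log2 signals of 7.66, 8.04 and 7.16 in Tg livers, against 7.23, 6.28 and 6.63 in non-Tg livers. Tg 5 and Tg 6 lay above every non-Tg liver, and Tg 7 lay below non-Tg 1. The log2 difference was 0.91 ± 0.37 (SE), or 1.87-fold with a 95% confidence interval from 1.06 to 3.32 (limma adjusted p = 0.807). A second probe set of Ccne1 gave a difference of 0.26. The other E-type cyclin, Ccne2, averaged 6.64 ± 0.50 in Tg livers and 6.73 ± 0.08 in non-Tg livers (mean ± SD of 3), and differed by -0.09.

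Ccnd3, a D-type cyclin, was at 10.33, 9.89 and 10.09 in Tg livers, against 9.64, 9.88 and 9.86 in non-Tg livers. The groups did not overlap, but Tg 6 and non-Tg 2 were level to within far less than the spread. Its log2 difference was 0.31 ± 0.16 (SE; limma adjusted p = 0.820), and a second kept probe set gave 0.36. Without Tg 5 the Ccnd3 difference was 0.19. Ccnd1, the D-type cyclin usually followed in regenerating liver, had 9.51, 9.21 and 8.65 in Tg livers and 9.14, 8.63 and 8.60 in non-Tg livers. Tg 7 and non-Tg 1 crossed, so the groups overlapped. Ccnd1 differed by 0.33 ± 0.25 (SE; limma adjusted p = 0.841) on this probe set, and by -0.07 and 0.01 on its other kept ones. It became 0.14 without Tg 5, 0.57 without Tg 7, 0.51 without non-Tg 1 and 0.13 with the bioC sets as a block. Ccnd2 averaged 8.75 ± 0.16 in Tg livers and 8.80 ± 0.17 in non-Tg livers (mean ± SD of 3).

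E2f1, the transcription factor that switches on replication genes, showed a wide spread in the animals without the transgene. Its log2 signals were 6.99, 6.95 and 6.25 in Tg livers, against 4.16, 6.76 and 5.24 in non-Tg livers. The log2 difference of 1.34 ± 0.70 (SE; limma adjusted p = 0.820) became 0.73 without non-Tg 1, 2.02 without non-Tg 2 and 0.60 with 64 added to each signal before taking logs. E2f1 differed by 2.81 in the lower set of arrays and by 0.25 in the higher. Myc, a growth factor response gene, ranged more between mice than between groups, at 9.98, 9.84 and 7.83 in Tg livers and 8.50, 6.88 and 10.11 in non-Tg livers. Its highest and lowest values both belonged to non-Tg livers.

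The kinases and inhibitors of G1 within the set lay close to 0 on the probe set that stood for each gene. Cdkn1a, an inhibitor outside the set, is given further below. Cdkn1b encodes the inhibitor p27, typical of resting cells, and had 9.08, 9.15 and 8.97 in Tg livers, against 9.25, 8.98 and 8.90 in non-Tg livers. Its log2 difference was 0.02, and the 95% confidence interval from -0.35 to 0.40 held no fold above 1.32 or below 0.782. The differences of Cdk2 (-0.01), Cdk4 (0.07) and Cdk6 (0.03) had intervals that stayed between -0.40 and 0.47. The other kept probe sets of Cdk6 gave 0.04 and -0.59, and those of Cdk4 gave -0.05 and 0.01. Cdkn2c, the Cdk4 and Cdk6 inhibitor p18, stood at 0.01 and the retinoblastoma gene Rb1 at -0.21.

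Among the replication genes, Mcm7 was the helicase subunit whose groups did not overlap. Mcm2 to Mcm7 form the ring that is loaded at origins and unwinds DNA, and their differences ran from -0.40 (Mcm6) to 0.33 (Mcm4). Mcm7 had log2 signals of 10.05, 9.92 and 10.12 in Tg livers, against 10.15, 10.37 and 10.21 in non-Tg livers. Every Tg value lay below every value of the other group, and the Mcm7 difference was -0.22 ± 0.13 (SE; limma adjusted p = 0.826). Its 3 other kept probe sets gave -0.16, -0.08 and -0.17. Mcm2 was at 7.52, 6.53 and 7.49 in Tg livers and at 7.22, 7.56 and 7.14 in non-Tg livers, and Tg 6 was the lowest of all mice. The Mcm2 difference was -0.13 ± 0.35 (SE; limma adjusted p = 0.960) and became 0.20 without Tg 6. Mcm4 had 7.75, 8.04 and 7.11 in Tg livers, against 7.40, 7.43 and 7.07 in non-Tg livers. Its difference was 0.33 ± 0.31 (SE; limma adjusted p = 0.863), with Tg 7 among the non-Tg values, and it became 0.13 without Tg 6, 0.59 without Tg 7 and 0.22 without non-Tg 3. Mcm3, whose promoter holds both E2F forms, had a difference of 0.00.

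Pcna, the sliding clamp of DNA polymerase, was the most tightly bounded of the set. Its log2 signals were 11.58, 11.63 and 11.75 in Tg livers, against 11.61, 11.75 and 11.91 in non-Tg livers. The Tg range lay within the lower end of the non-Tg range, but for Tg 5. The difference of -0.11 had a 95% confidence interval from -0.37 to 0.15, which is 0.775-fold to 1.11-fold. With 1 mouse left out it ran from -0.18 to -0.03, the ends without non-Tg 1 and without non-Tg 3.

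The subunits of ribonucleotide reductase, which makes deoxynucleotides, both lay above 0. For the large subunit Rrm1 the log2 signals were 8.85, 8.49 and 8.09 in Tg livers, against 8.02, 8.17 and 7.73 in non-Tg livers. Tg 7 and non-Tg 2 crossed, and the difference was 0.50 ± 0.25 (SE; limma adjusted p = 0.814), with 0.28 on the second kept probe set and 0.32 without Tg 5. For the small subunit Rrm2 they were 8.37, 9.001 and 9.41 in Tg livers, against 8.48, 8.69 and 8.76 in non-Tg livers. Here Tg 5 was the lowest of all mice and Tg 7 the highest, whereas Tg 5 was the highest for Rrm1, and the difference was 0.28 ± 0.26 (SE; limma adjusted p = 0.863). It became 0.56 without Tg 5 and 0.04 without Tg 7. Tyms, thymidylate synthase, lay below the filter at 4.89 ± 1.73 in Tg livers and 5.11 ± 1.02 in non-Tg livers (mean ± SD of 3).

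**Figure D2:**
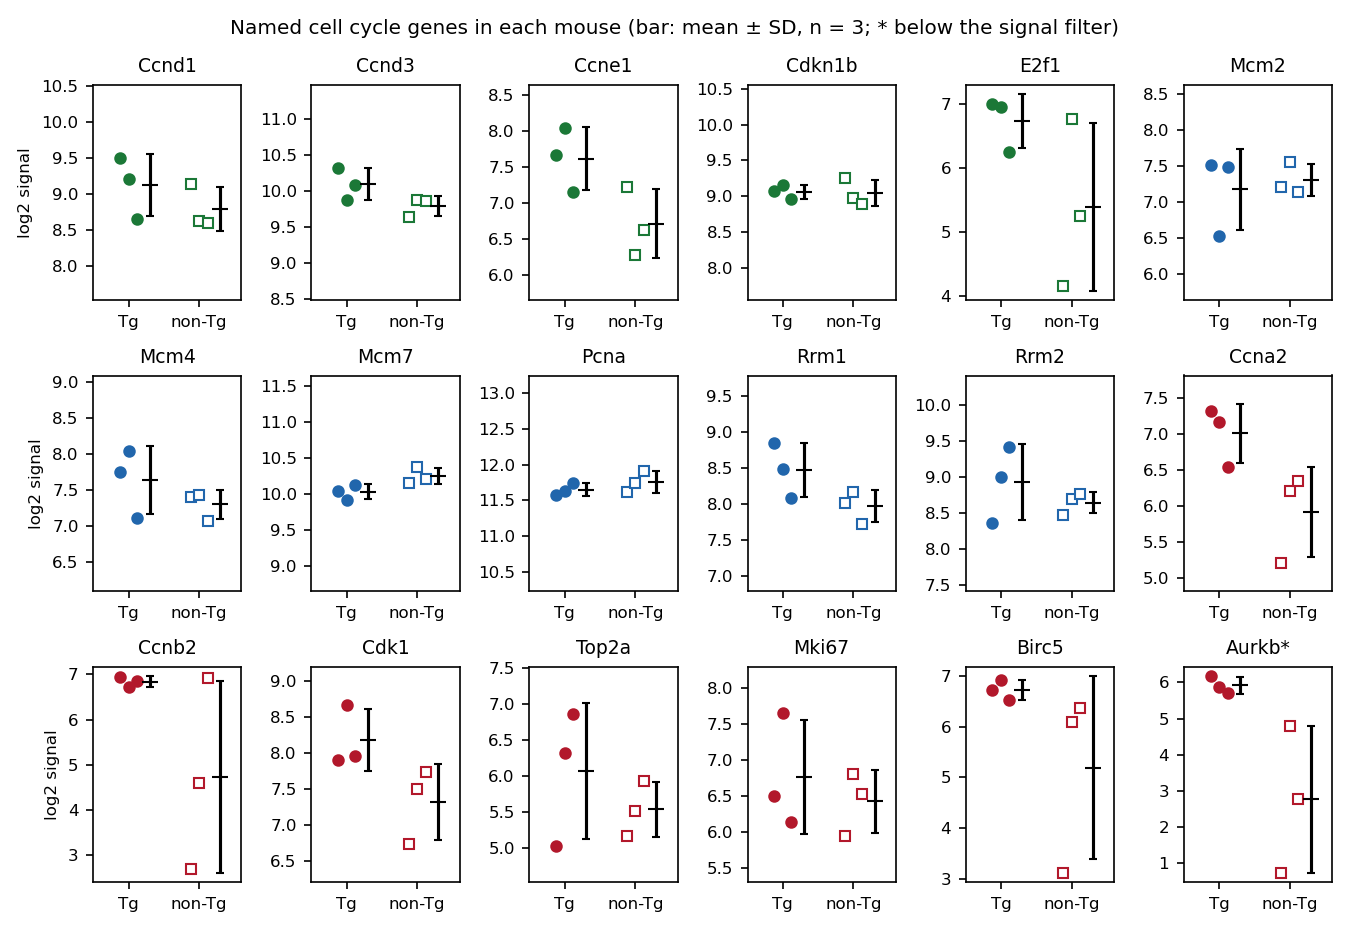
Log2 signal of 18 named cell cycle genes in each mouse, with Tg (filled circles) left of non-Tg (open squares), the mean and SD beside the points, and colour by phase as in the heat map; the vertical scale differs between panels. Ccnd3, Ccna2, Cdk1, Birc5 and Aurkb show Tg points all above non-Tg points, and Mcm7 shows them all below.

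The largest differences of the set belonged to genes of G2 and mitosis. Cdk1, the kinase that starts mitosis, had log2 signals of 7.90, 8.67 and 7.95 in Tg livers, against 6.73, 7.497 and 7.74 in non-Tg livers. No non-Tg liver reached the lowest Tg liver, and Tg 6 was the highest. The log2 difference was 0.85 ± 0.33 (SE), or 1.80-fold with a 95% confidence interval from 1.07 to 3.03 (limma adjusted p = 0.803). It was 0.56 without non-Tg 1, and it was 1.56 in the lower set of arrays and 0.33 in the higher. An exact permutation test gave p = 0.1 for Cdk1, the smallest that 20 assignments of 3 mice against 3 allow.

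Ccna2, the cyclin of S phase and G2, was at 7.31, 7.16 and 6.54 in Tg livers and at 5.20, 6.21 and 6.34 in non-Tg livers. These groups did not overlap either. The difference was 1.09 ± 0.48 (SE; limma adjusted p = 0.807). A second kept probe set gave 1.94, but it passed the filter only through its higher Tg values, with a non-Tg mean of 4.90. On the first probe set the difference was 0.73 without non-Tg 1. Within the sets of arrays it was 2.04 in the lower and 0.26 in the higher.

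Ccnb2, a partner of Cdk1, was even across Tg livers and uneven across non-Tg livers. Its log2 signals were 6.95, 6.71 and 6.86 in Tg livers, against 2.67, 4.59 and 6.92 in non-Tg livers. Non-Tg 3 lay among the Tg values, and the other non-Tg livers lay below the filter value of 5.63. The difference of 2.11 ± 0.97 (SE; limma adjusted p = 0.807) became 1.09 without non-Tg 1, 3.21 without non-Tg 3 and 0.77 with 64 added before the log. In the lower and higher sets of arrays it was 4.16 and 1.11.

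Birc5, the survivin of the chromosomal passenger complex, followed the same order of mice at the low end. It had 6.73, 6.93 and 6.52 in Tg livers, against 3.12, 6.09 and 6.37 in non-Tg livers. The groups did not overlap, but the difference of 1.53 ± 0.84 (SE; limma adjusted p = 0.820) was 0.50 without non-Tg 1 and 0.60 with 64 added before the log. Within the sets of arrays Birc5 differed by 3.71 in the lower and by 0.29 in the higher. Aurkb, the kinase of that complex, lay below the filter at 6.17, 5.86 and 5.72 in Tg livers and 0.74, 4.78 and 2.76 in non-Tg livers. Its groups did not overlap, yet in a fit without a filter its adjusted p was 0.795 (limma), where 0.011% of 18193 genes were called and 11.2% had groups without overlap. The Aurkb difference of 3.15 became 0.73 with 64 added before the log and 2.14 without non-Tg 1.

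Mki67 and Top2a, both common proliferation markers, overlapped between the groups. Mki67, which coats mitotic chromosomes, was at 6.50, 7.65 and 6.13 in Tg livers, against 5.95, 6.81 and 6.52 in non-Tg livers. Tg 6 was the highest and the other Tg livers lay within the non-Tg range. The Mki67 difference of 0.33 ± 0.50 (SE; limma adjusted p = 0.909) became -0.11 without Tg 6. Top2a, the topoisomerase that untangles chromosomes, had 5.03, 6.32 and 6.87 in Tg livers, against 5.17, 5.51 and 5.94 in non-Tg livers. Tg 5 was the lowest of all mice, and the difference was 0.53 ± 0.67 (SE; limma adjusted p = 0.890). It became 1.05 without Tg 5, 0.13 without Tg 7 and 0.35 without non-Tg 1. Both other Top2a probe sets lay below the filter, and they gave differences of 2.28 (means of 6.76 in Tg livers against 4.48 in non-Tg livers) and -0.21.

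Other genes of mitosis pointed both ways. Plk1, a kinase needed for mitotic entry and spindle assembly, lay below the filter and was the other way round from Aurkb. It was at 3.25, 5.86 and 3.42 in Tg livers against 5.80, 6.96 and 6.92 in non-Tg livers. Only its Tg values put it below the filter, with means of 4.18 in Tg livers and 6.56 in non-Tg livers. Tg 6 lay just above non-Tg 1, so the groups overlapped, and the difference of -2.38 became -0.88 with 64 added before the log (limma adjusted p = 0.819 without a filter). Kif11, the spindle motor, also lay below the filter and differed by 1.19, and Bub1, a spindle checkpoint kinase, by 0.18. Ube2c, the ubiquitin-conjugating enzyme of the anaphase-promoting complex, differed by 0.96, with non-Tg 2 at 3.69 against 6.63 to 7.13 in the other mice. The checkpoint genes Mad2l1 (-0.29) and Bub1b (-0.16), the complex's activator Cdc20 (-0.01), the factor Foxm1 (-0.17) and the kinase Aurka (0.30) had confidence intervals that held 0.

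**Figure D3:**
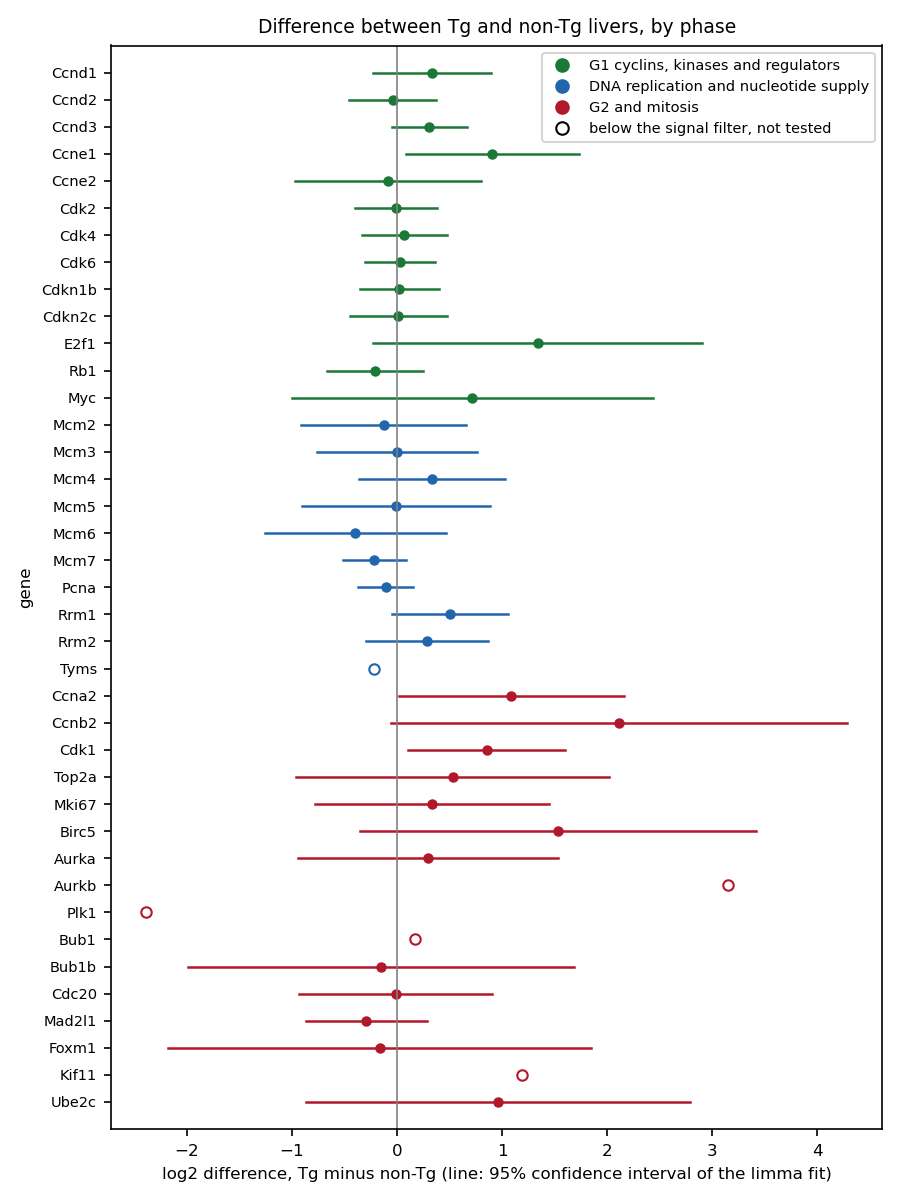
Log2 difference, Tg minus non-Tg, of each cell cycle gene (points, coloured by phase) with the 95% confidence interval of the limma fit (lines); open points are genes below the signal filter, drawn without an interval. Intervals are narrow for Pcna, Mcm7 and the G1 kinases and widest for Ccnb2 and Foxm1, and only those of Ccne1, Ccna2 and Cdk1 leave out 0.

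The 34 genes above the filter and the 5 below it spread by signal level. In the 7 genes with a mean above 9 the differences ran from -0.22 to 0.31, with a median within-group SD of 0.15. In the 17 genes between the filter and 7.5 they ran from -0.17 to 2.11 with an SD of 0.60, and in the 5 genes below the filter from -2.38 to 3.15 with an SD of 1.13. The same medians over all genes were 0.17 above 9, 0.57 between the filter and 7.5 and 1.29 below the filter. The 95th percentile of the size of the difference over all genes was 0.44 above 9, 0.63 between 7.5 and 9, 1.28 between the filter and 7.5 and 2.23 below the filter. Beyond it lay 0 of 7, 2 of 10 (Cdk1 and Myc), 3 of 17 (E2f1, Ccnb2 and Birc5) and 2 of 5 (Aurkb and Plk1) cell cycle genes. The 3 genes in the bin above the filter were kept in it by their Tg values, as their non-Tg means lay below 5.63, so nothing is read from that count.

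**Figure D4:**
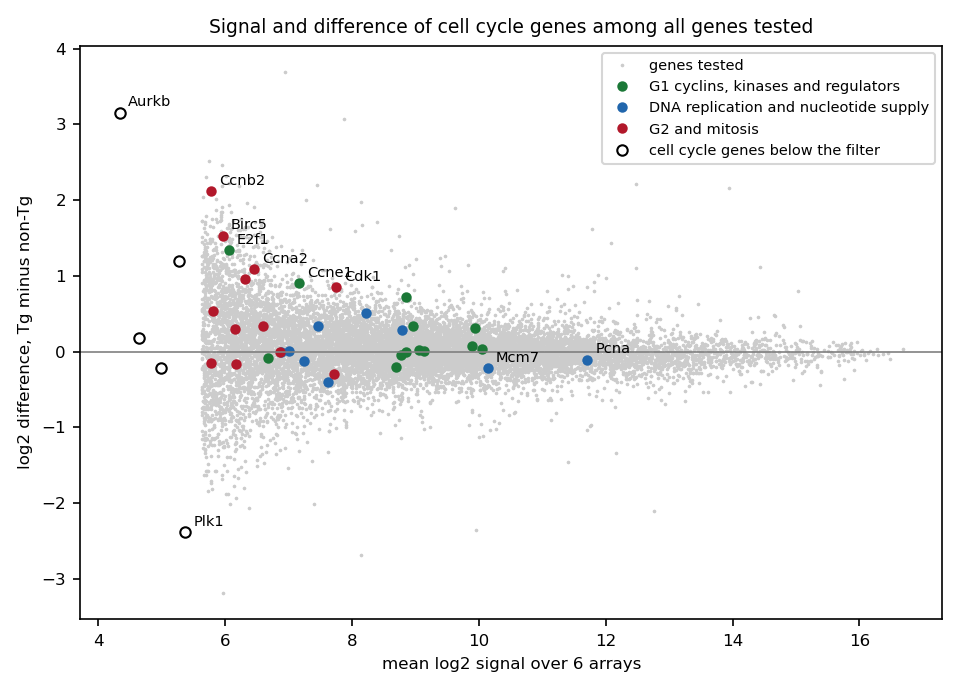
Log2 difference, Tg minus non-Tg, against the mean log2 signal over 6 arrays, for all genes tested except Retnla (grey) and for cell cycle genes by phase (coloured; open circles lie below the filter). Aurkb at 3.15 and Plk1 at -2.38 lie below the filter, Ccnb2 at 2.11 and Birc5 at 1.53 sit just above it where the grey cloud is widest, and Pcna and Mcm7 sit where it is narrow.

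The pattern varied by mouse. Over the 16 G2 and mitosis genes the median deviation from the gene's own mean was 0.47 in Tg 5, 0.59 in Tg 6 and 0.25 in Tg 7, against -0.50 in non-Tg 1, -0.19 in non-Tg 2 and 0.01 in non-Tg 3. Non-Tg 1 was the lowest of the 6 mice for 7 of these 16 genes and the highest for 0. Without non-Tg 1 the median difference of the G2 and mitosis genes was 0.33. It was 0.79 without Tg 5, 0.69 without non-Tg 3, and 0.26 with 64 added before the log. In the lower set of arrays, which compares Tg 5 and Tg 6 with non-Tg 1, that median was 0.59, and in the higher set, Tg 7 against non-Tg 2 and non-Tg 3, it was 0.31. For 11 of the 16 genes the difference had the same sign in both sets. The same held for 23 of all 39 genes. It held for 51 of 106 measured cell cycle genes outside the set, and for 22 of the 47 mitosis genes among them. Over the 13 G1 genes the deviations ran from -0.09 to 0.19 across mice, and over the 10 replication genes from -0.08 to 0.28. Tg 5 was the highest mouse for 13 of all 39 genes and the lowest for 8, and its array had the highest median of all probe sets, 6.74.

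**Figure D5:**
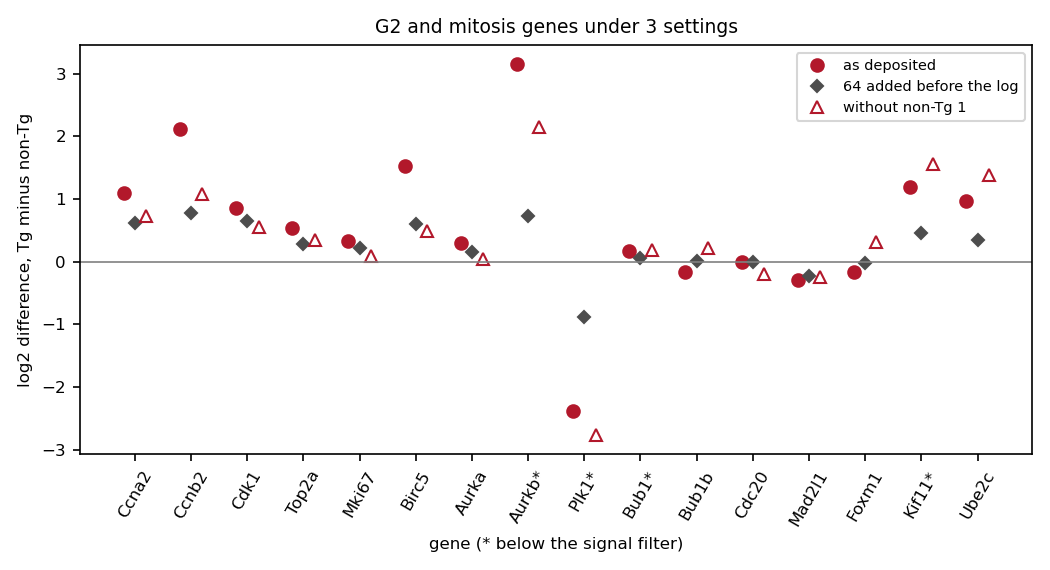
Log2 difference, Tg minus non-Tg, of 16 G2 and mitosis genes with the signals as deposited (filled circles), with 64 added before the log (diamonds) and without non-Tg 1 (open triangles); an asterisk marks genes below the filter. The added constant draws Ccnb2 to 0.77 and Birc5 to 0.60, and leaving out non-Tg 1 draws them to 1.09 and 0.50.

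Probe sets of 1 gene often disagreed. Of the 16 cell cycle genes with several probe sets above the filter, 6 had all of them on the same side of 0. Those were Ccna2 (whose second probe set passed the filter only through its Tg values), Ccnd3, Ccne1, Mcm4, Mcm7 and Rrm1. Among the other 10, Cdc20 gave -0.01, 0.15 and -1.28, Mcm3 gave 0.00, 0.53 and -0.57, and Mcm6 gave -0.40 and 0.34. Cdk1, Ccnb2 and Birc5 each had 1 probe set.

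Further genes of the pathway were read from lists of 109 names, of which 106 were measured and 85 lay above the filter. The lists were written with earlier results of these data known, so their counts are descriptions. Of those 85, 0 passed, against 0.0157% of all genes tested, and their median difference was 0.07. Among 33 further mitosis genes above the filter 27 were higher and 6 lower in Tg livers, with a median of 0.23. Over all genes tested 52.1% were higher. Racgap1, Kif4, Nusap1 and Smc2, all higher, passed the filter only through their Tg values. Espl1, which was lower, passed only through its non-Tg values, so the count is a description. Of the 33 genes, 9.09% had groups without overlap against the 11.7% over all genes tested. Racgap1, a regulator of cytokinesis, was at 7.24, 7.22 and 6.65 in Tg livers and at 6.84, 4.13 and 3.60 in non-Tg livers. The Racgap1 difference was 2.18 ± 0.83 (SE; limma adjusted p = 0.787), and 0.92 with 64 added before the log. Racgap1 lay above the filter only through its higher Tg values, with a non-Tg mean of 4.85. Here non-Tg 1 was the high mouse of its group and lay above Tg 7. Zwint, a kinetochore protein, was lower without overlap, at 11.02, 10.94 and 11.01 in Tg livers against 11.31, 11.36 and 11.38 in non-Tg livers. It was the most even of the named genes within groups, and its difference was -0.36 ± 0.11 (SE; limma adjusted p = 0.735).

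Among 35 further replication genes above the filter 18 were higher and 17 lower, with a median of 0.00. Gins3, the furthest above 0 of them at 1.29, passed the filter only through its higher Tg values, with a non-Tg mean of 5.47. Fen1, the flap endonuclease, differed by -0.97 ± 0.42 (SE; limma adjusted p = 0.807). The Fen1 value was -0.37 as the mean of its kept probe sets, -0.60 without Tg 5 and -1.52 without Tg 7. Pola2, a subunit of DNA polymerase alpha, differed by -0.69 ± 0.33 (SE; limma adjusted p = 0.810), by -0.20 as the mean of its kept probe sets and by -0.41 without Tg 7. Among 17 other CDK inhibitors, pocket proteins and E2F factors above the filter 6 were higher and 11 lower, with a median of -0.04, and E2f8, a repressor of E2F targets, differed by -0.57 ± 0.37 (SE; limma adjusted p = 0.826), and by -0.15 without Tg 7. Cdkn1a, which encodes the inhibitor p21, stood apart in size. It was at 7.38, 10.44 and 8.57 in Tg livers, against 5.54, 4.06 and 5.70 in non-Tg livers. Its difference of 3.70 ± 0.73 (SE) did not pass (limma adjusted p = 0.378). Cdkn1a lay above the signal filter only through its higher Tg values, with a non-Tg mean of 5.10. The Cdkn1a difference became 2.39 with 64 added before the log, and ran from 2.88 (without Tg 6) to 4.40 (without Tg 5) with 1 mouse left out. Tg 6 was the highest mouse for Cdkn1a and for 9 of the 39 cell cycle genes. Tg 5, the lowest Tg mouse for Cdkn1a, was the highest for 13 of the 39.

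Markers of other cells that can hold cycling cells were read beside these values, as the log2 of their summed signal. Over 10 of 10 Kupffer cell and macrophage markers it ran from 14.20 to 15.61 in Tg and from 14.57 to 14.71 in non-Tg livers, the top value in Tg 6, and none of the markers lay below the filter. Over 9 of 12 T and NK cell markers it ran from 10.15 to 10.69 in Tg and from 9.54 to 10.27 in non-Tg livers, with 4 of the 9 below the filter. Over 6 of 10 erythroid markers, 2 of them below the filter, the ranges were 12.33 to 12.81 in Tg and 11.94 to 12.20 in non-Tg livers, without overlap. Alas2 led that sum, with a mean log2 signal of 11.93 against 9.39 for Klf1, the next. Singly, Alas2 and Hbb-b2 did not overlap between groups, and Klf1, Hba-a1, Epb42 and Slc4a1 did. Of all genes measured, 11.2% had groups without overlap. Over 7 of 8 B cell markers they were 9.60 to 10.25 in Tg and 9.75 to 9.89 in non-Tg livers, and over 7 of 8 neutrophil markers 7.99 to 9.44 in Tg and 8.76 to 9.23 in non-Tg livers, with 1 and 2 below the filter. Sinusoidal endothelial markers (8 genes) lay at 13.66 to 13.93 in Tg and 13.63 to 13.79 in non-Tg livers, stellate cell markers (8 genes) at 12.61 to 13.04 in Tg and 12.73 to 13.35 in non-Tg livers, and bile duct markers (5 of 7 genes) at 8.02 to 8.95 in Tg and 8.53 to 9.25 in non-Tg livers. Singly, 3 of 7 stellate markers above the filter did not overlap between groups, 42.9% against 11.7% of all genes tested. Lrat (-0.93) and Reln (-0.52) were lower in Tg livers and Acta2 (0.77) was higher. The other stellate markers overlapped, and 0 passed the adjusted threshold. The part of these cells in the values of Cdk1, Ccna2 and the other cell cycle genes was not tested.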

How the data were processed

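Liver RNA of 6 mice was measured, 1 array per mouse. The authors deposited log2 signals of 45101 probe sets, made with GCOS per the submitters' processing notes. No source used here states its version or summary algorithm. Those deposited values ran from -2.64 to 16.8, and once antilogged and trimmed by 2% at either end they averaged 500.0 on every array. After 64 control probe sets were set aside, GEO's platform annotation gave 1 symbol for 34945 probe sets, several for 932 and none for 9160; only the first kind was used. Of these, 34741 matched a RefSeq gene table (GRCm38.p6) by Entrez number, which changed 0 symbols. The comparison used limma version 3.58.1 under R 4.3.3 with statmod 1.5.0 (lmFit, eBayes with intensity trend, 2-sided), tested on simulated data, on the highest-mean probe set of each gene above the 40th percentile of mean signal, with Benjamini-Hochberg adjustment over 12705 genes. Each SE and interval is the moderated one, on 9.61 degrees of freedom after moderation of the 4 residual ones. The labels give individual mice as samples; their number limits the precision. A constant added before the log shrinks the differences of dim genes.

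The members and lists were chosen with earlier results of these data known. Named were the 4 genes of each phase with the smallest p, genes whose groups did not overlap, 7 standard markers (Ccnd1, Cdkn1b, Mcm2, Pcna, Top2a, Mki67 and Cdk1), Cdkn1a, and 2 genes of each pathway list; other members are given by their differences, and Myc, Plk1, Ube2c and Ccne2 were singled out after their values were seen. The printed promoters were chosen after values and matches were seen. Figures were drawn with matplotlib 3.10.9.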

Additional observations from a re-analysis of the deposited data

How the results depend on the processing

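No cell cycle gene and no further pathway gene passed in any of the 16 alternatives: constants of 16 or 64 added before the log, no filter, a filter at the 60th percentile, quantile normalization, median centring, eBayes without the trend or robust, the mean of the kept probe sets, the bioC sets as a block, and each of the 6 mice left out. The lowest adjusted p of a cell cycle gene ran from 0.466 (without Tg 7) to 0.996 (without non-Tg 2). The 2 calls over all genes became 4 with 16 added, 6 with 64 added, 5 with median centring, 4 with robust moderation and 4 with the block; with 1 mouse left out they ran from 2 to 3. The count of cell cycle genes without overlap, 5, was 3 with the 60th percentile filter and 3 with median centring, and with 1 mouse left out it ran from 5 to 10, with 10 without Tg 5 or Tg 7 and 8 without non-Tg 2 or non-Tg 3; smaller groups overlap less often by construction.

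With 1 mouse left out, the median difference ran from 0.33 to 0.79 for G2 and mitosis genes, from -0.0074 to 0.14 for G1 genes, from -0.11 to 0.087 for replication genes and from 0.10 to 0.22 for all 39. With median centring the medians of G1 genes and of all 39 were -0.04 and -0.00. Of 373 values of named genes under these settings 10 had the other sign, all of Cdkn1b, Mcm2 or Mki67. Cdkn1b was -0.0018 with quantile normalization, -0.052 with median centring, -0.054 with the block and -0.050 to 0.13 with 1 mouse left out. Mcm2 was 0.0016 with the mean of its probe sets and -0.30 to 0.20 with 1 mouse left out, and Mki67 was -0.11 to 0.65 with 1 mouse left out. The cause was not tested. Aurkb moved to 1.56 with 16 added and to 0.73 with 64 added. Low signal limits Tyms, Aurkb, Plk1, Bub1 and Kif11, which lay below the filter. The no-filter setting and the 2 changes of moderation leave the medians as they are. No paired analysis was possible because the groups share no mouse number.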
